A study of Mus musculus with 4 samples.

Results

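Urea cycle enzymes and liver enzymes of amino acid breakdown were followed through their transcripts in AML12 cells, a non-tumour hepatocyte line derived from mice with a transgene for human TGF-alpha. The 9 genes were taken by symbol: the urea cycle genes Nags, Cps1, Otc, Ass1, Asl and Arg1, and the amino acid catabolic genes Tat, Hpd and Tdo2. All 9 symbols matched 1 identifier each, of 52630 in all. In shTopors, AML12 was infected with lentivirus carrying a hairpin against Topors, an E3 ligase for ubiquitin and SUMO. In shCtrl it was infected with the control hairpin. Each group had 2 libraries, and both groups received 200 µl of virus concentrate, grew in medium with 10% serum, an ITS supplement and 0.1 µM dexamethasone, and were collected on day 5. Whether both libraries of a group stem from separate cultures is not stated in the labels, and p-values therefore reflect the spread between libraries alone, which may be technical. Transcript levels are TPM, scaled by transcript length and by the library total. Depth cannot be read from TPM, and the reads behind a value are not known.

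The urea cycle turns ammonia into urea and runs fully in liver. N-acetylglutamate synthase (Nags) makes the cofactor that carbamoyl phosphate synthetase (Cps1) needs to fix ammonia in mitochondria, and ornithine transcarbamylase (Otc) passes the carbamoyl group to ornithine. In the cytosol argininosuccinate synthetase (Ass1) and argininosuccinate lyase (Asl) build arginine, which arginase (Arg1) splits into urea and ornithine. Ass1 and Asl also serve arginine synthesis outside liver, whereas Nags, Cps1 and Otc are mainly enzymes of liver and intestine. Tyrosine aminotransferase (Tat) and 4-hydroxyphenylpyruvate dioxygenase (Hpd) start the breakdown of tyrosine, and tryptophan dioxygenase (Tdo2) opens that of tryptophan. Tat and Tdo2 are textbook glucocorticoid-induced genes of liver.

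Topors, the targeted gene, was at 4.31 and 4.65 TPM in shTopors, against 21.9 and 29.2 TPM in shCtrl, so both knockdown libraries went with their labels. Over the whole table, the 13509 genes that averaged 1 TPM or more were tested as log2(TPM + 1) with limma, a linear model fitted across genes, and called at a Benjamini-Hochberg adjusted p under 0.05. Called were 5 genes, or 0.037% of those tested. Topors itself was not among them (log2 difference -2.27, adjusted p = 0.0823 in limma's fit), so a gene that was not called may still differ. Groups were apart, without overlap, for 14.6% of tested genes as higher and for 35.2% as lower, and the median log2 difference of all tested genes was -0.18. Of 12 hepatocyte markers 10 reached 1 TPM in at least 1 library, and Ahsg and Asgr1 did not. Hepatocyte markers summed to 2144 and 2506 TPM in shTopors, against 3401 and 5447 TPM in shCtrl, a gap that rests on Trf and Ttr. Without these 2, left out after their values were seen, the sums overlapped, at 767 and 722 TPM in shTopors and 727 and 999 TPM in shCtrl. Of the 10 markers above 1 TPM, 3 (Trf, Ttr and Apob) were lower without overlap, none was higher and 7 overlapped, among them Alb, at 4.15 and 402 TPM in shTopors and 118 and 271 TPM in shCtrl, and Apoa1, at 113 and 11.5 TPM in shTopors and 12.3 and 28.4 TPM in shCtrl. Of 5 bile duct markers 4 reached 1 TPM (all but Epcam), and their sums overlapped, at 1891 and 1088 TPM in shTopors and 952 and 1412 TPM in shCtrl. Among them Krt19 was higher, at 1396 and 345 TPM in shTopors and 341 and 296 TPM in shCtrl, and Sox9 lower, at 26.9 and 42.1 TPM in shTopors and 76.8 and 91.2 TPM in shCtrl, each without overlap. None of 8 stellate cell and fibroblast markers and none of 5 endothelial markers reached 1 TPM in any library. Of 6 leukocyte markers 1 (Cd68) reached 1 TPM in at least 1 library. In bulk RNA fewer cells of a type and less RNA per cell cannot be told apart.

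Of the 9 genes, Asl and Ass1 were the ones above 1 TPM in these cells. The other 7 stayed under 1 TPM in every library, with a highest single value of 0.57 TPM. Asl and Ass1 gave 99.7% and 99.1% of the summed TPM of the 9 genes in shTopors, against 98.8% and 97.1% in shCtrl. That sum was 82.5 and 94.5 TPM in shTopors and 67.3 and 67.4 TPM in shCtrl. The order of levels per length was Asl first and Ass1 second, and their ranges over the 4 libraries did not meet. The other 7 genes overlapped with their neighbours in the order. Of their 28 values, 11 were exactly 0, so these values are given as listed, with no mean and no fold change. Over all identifiers, 6 protein-coding genes were listed at 0 in at least 1 library and at 10 TPM or more in another. As the reads behind a value are not known, a listed 0 does not show that a transcript was absent.

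**Figure D1:**
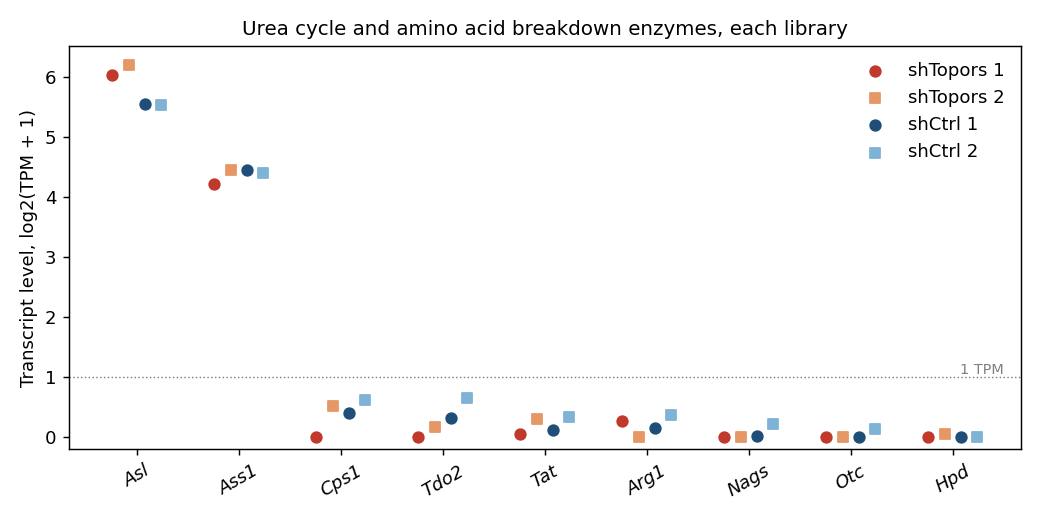
Transcript level of the 9 enzymes as log2(TPM + 1) in each library, genes ordered by mean TPM, with shTopors libraries in red and orange and shCtrl libraries in dark and light blue, and a dotted line at 1 TPM. Asl and Ass1 lie above 17 TPM in all 4 libraries and the other 7 genes lie under 1 TPM in all 4.

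Asl, which releases arginine and fumarate from argininosuccinate, was higher in both knockdown libraries than in both controls. It lies on chromosome 5 of mm10, from 130011258 to 130029247 on the minus strand (ENSMUSG00000025533), and no other annotated gene overlaps it. Asl was at 64.5 and 72.9 TPM in shTopors, against 45.6 and 45.3 TPM in shCtrl. The shCtrl libraries were nearly equal and the groups did not overlap. Asl averaged 68.7 ± 5.90 TPM in shTopors and 45.5 ± 0.209 TPM in shCtrl (SD, n = 2 each), a 1.51-fold difference in TPM. In limma's fit the log2 difference was 0.58 (SE 0.239, 95% interval 0.02 to 1.15), with an unadjusted p = 0.0448 and an adjusted p = 0.328 that missed the threshold. Among tested genes 843 had a larger positive difference. Relative to the median of all tested genes, the Asl difference was 0.77 on the log2 scale. Within the 4 libraries Asl stood between percentile 93.8 and 96.9 of all identifiers by TPM.

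Ass1, which joins citrulline and aspartate and is the step before Asl, had overlapping levels. It spans 31470207 to 31520672 on the plus strand of mm10 chromosome 2 (ENSMUSG00000076441). Ass1 was at 17.7 and 20.8 TPM in shTopors, against 20.9 and 20.1 TPM in shCtrl. The lowest value was that of shTopors 1, and shTopors 2 lay between the controls. Ass1 averaged 19.2 ± 2.15 TPM in shTopors and 20.5 ± 0.535 TPM in shCtrl (SD, n = 2 each). In limma's fit the log2 difference was -0.09 (SE 0.263, adjusted p = 0.882), with a 95% interval from -0.71 to 0.53, so the data bound any change only loosely. Its sign turned positive under 2 of the other scalings between libraries (0.09 under both) and without shTopors 1 (0.02). A processed copy, the pseudogene Gm5424, matches Ass1 transcripts over 1240 bases at 99.5% identity. Gm5424 was listed at 0.186 and 0.112 TPM in shTopors and at 0.111 and 0.0205 TPM in shCtrl. The sources used here do not give how reads shared by these copies were counted, so the Ass1 level is uncertain to that extent.

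Asl and Ass1 act one after the other, and their ratio within a library does not depend on the scaling between libraries. Asl over Ass1 was 3.64 and 3.51 in shTopors, against 2.19 and 2.26 in shCtrl. The groups did not overlap. The ratio averaged 3.58 ± 0.0939 in shTopors and 2.22 ± 0.0478 in shCtrl (SD, n = 2 each), a 1.61-fold difference of geometric means. An SD of 2 libraries gives their spread only roughly. The ratio was not a planned result, and how often ratios of other gene pairs lie apart was not computed. The exact two-sided permutation test gave p = 0.333, which is the smallest p that 2 against 2 libraries allow. The ratio shows unequal levels of both transcripts, not which one changed.

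**Figure D2:**
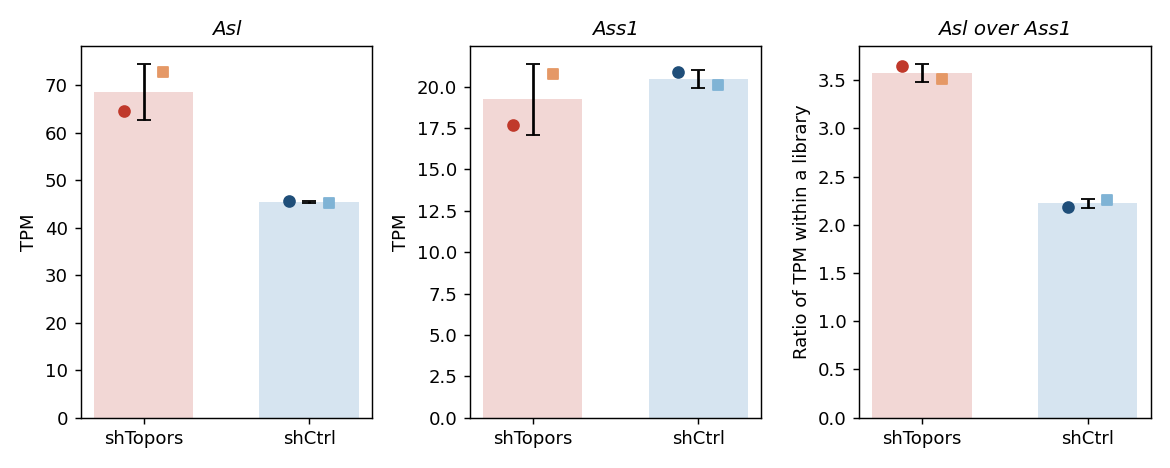
Levels of Asl and Ass1 in TPM and their ratio within a library, with bars for group means, error bars for the SD of 2 libraries, circles for replicate 1 and squares for replicate 2. The ratio lies at 3.51 or above in shTopors and at 2.26 or below in shCtrl, while Ass1 levels overlap.

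By the fixed measure of likeness, the root mean square distance between profiles of log2(TPM + 1) over 4 libraries after centring each gene, the nearest genes to Asl were Snord15b (distance 0.0173), Rps3a3 (0.039) and Sf3b5 (0.0445). The nearest to Ass1 were Rn7sk (0.0122), Hlcs (0.0172) and Diexf (0.0181). With 4 libraries such nearness describes these profiles only. Sf3b5, a splicing factor subunit gene, was at 20.3 and 21.6 TPM in shTopors and at 14.3 and 13.3 TPM in shCtrl.

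Transcripts for the mitochondrial steps of the cycle were near 0 in every library. Cps1 (mm10 chromosome 1, 67123026 to 67231259, plus strand) was listed at 0 and 0.431 TPM in shTopors, against 0.328 and 0.536 TPM in shCtrl. Otc (chromosome X, 10252305 to 10321024, plus strand) was listed at 0 in both shTopors libraries and at 0 and 0.104 TPM in shCtrl. Both genes overlapped between groups. Nags (chromosome 11, 102145513 to 102149477, plus strand) was listed at 0 in both shTopors libraries and at 0.0204 and 0.164 TPM in shCtrl. The groups did not overlap for Nags, at levels where a few reads can set the order. It also shares sequence with an antisense gene, Gm11586, which was listed at 0.179 TPM in shCtrl 2 alone and at 0 elsewhere. The sources used here do not give the strand setting of the authors' counting.

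Arginase, the last step of the cycle, was equally low. Arg1 (chromosome 10, 24915221 to 24927484, minus strand) had 0.206 and 0 TPM in shTopors, against 0.112 and 0.289 TPM in shCtrl, and the groups overlapped. Its mitochondrial relative Arg2, named here for its role, was at 0.215 and 0.199 TPM in shTopors and at 0.0775 and 0.143 TPM in shCtrl. Neither arginase gene reached 1 TPM in any library.

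The amino acid catabolic enzymes of the set were under 1 TPM too, in medium that held dexamethasone. Tat (chromosome 8, 109990437 to 109999803, plus strand) was at 0.0399 and 0.242 TPM in shTopors, against 0.093 and 0.258 TPM in shCtrl, with overlapping groups. Hpd (chromosome 5, 123171807 to 123182727, minus strand) had 0 and 0.0405 TPM in shTopors and 0 in both shCtrl libraries. Hpd lies inside the span of Psmd9 on the opposite strand, a proteasome assembly gene at 18.9 and 14.3 TPM in shTopors and 11.6 and 12.5 TPM in shCtrl. Tdo2 (chromosome 3, 81957090 to 81976202, minus strand) had 0 and 0.12 TPM in shTopors, against 0.247 and 0.57 TPM in shCtrl. Both shTopors values of Tdo2 lay below both shCtrl values, all under 1 TPM.

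Without the filter on low values all 9 genes entered limma's fit over 24900 genes, in which 0 genes in all were called (0%). The adjusted p was 0.411 for Asl and 0.445 for Tdo2 (unadjusted 0.0196 and 0.0433), and between 0.602 and 0.888 for the other 7. Tdo2 and Nags were the members with lower, non-overlapping groups, a pattern that 28.6% of those 24900 genes showed. With the filter, 0 of the 2 members tested were called in limma and 1 of them, Asl, had an unadjusted p under 0.05 as higher, against 3.98% of all tested genes.

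Sequence upstream of the start was at hand for 6 of the 9 genes in RefSeq's table for GRCm38.p6, the build that mm10 stands for: Otc, Ass1, Nags, Hpd, Tdo2 and Tat. The 250 bases before RefSeq's start are shown for Ass1, the gene above 1 TPM among these 6, and for Tdo2, Tat and Otc, which were near 0. The windows of Hpd and Nags, which were near 0 too, are not shown. RefSeq and GENCODE, the source of the gene spans given above, place some starts differently. All 250 bases of the Tdo2 window lie inside GENCODE's longer Tdo2 span, as do 63 bases of the Ass1 window in the Ass1 span and 4 of the Hpd window in the Hpd span. The windows of Tat, Otc and Nags lie outside the GENCODE spans. Capitals mark each CG dinucleotide, and each sequence runs 5′ to 3′ on the gene's own strand. The windows are chr2:31470020-31470269 on the plus strand for Ass1, chr3:81975729-81975978 on the minus strand for Tdo2, chr8:109990186-109990435 on the plus strand for Tat and chrX:10252055-10252304 on the plus strand for Otc.
Ass1: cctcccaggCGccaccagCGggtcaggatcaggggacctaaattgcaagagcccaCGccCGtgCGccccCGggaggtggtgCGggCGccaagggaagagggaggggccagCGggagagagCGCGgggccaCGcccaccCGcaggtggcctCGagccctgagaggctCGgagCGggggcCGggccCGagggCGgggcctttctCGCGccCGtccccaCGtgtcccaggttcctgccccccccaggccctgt
Tdo2: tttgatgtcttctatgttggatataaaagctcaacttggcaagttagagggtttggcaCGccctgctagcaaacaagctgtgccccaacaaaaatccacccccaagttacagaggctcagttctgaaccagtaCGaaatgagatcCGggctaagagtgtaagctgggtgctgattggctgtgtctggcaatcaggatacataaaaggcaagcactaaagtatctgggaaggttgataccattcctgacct
Tat: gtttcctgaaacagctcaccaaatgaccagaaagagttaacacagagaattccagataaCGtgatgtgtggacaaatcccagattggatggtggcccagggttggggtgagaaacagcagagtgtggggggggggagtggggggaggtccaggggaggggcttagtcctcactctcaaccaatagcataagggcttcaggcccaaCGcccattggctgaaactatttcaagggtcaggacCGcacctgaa
Otc: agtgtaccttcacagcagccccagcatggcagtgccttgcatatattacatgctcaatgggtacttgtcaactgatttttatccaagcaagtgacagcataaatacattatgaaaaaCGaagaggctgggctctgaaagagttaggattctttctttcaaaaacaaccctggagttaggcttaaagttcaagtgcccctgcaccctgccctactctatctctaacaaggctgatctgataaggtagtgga

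The Ass1 window held 23 CG dinucleotides at a GC content of 75.6%, and 13.3% of 32851 windows of this length in the table held at least as many. Tdo2 and Tat held 3 each, Otc 1, Hpd 7 and Nags 11, beside a median of 6 over all windows. GC content was 46.4% for Tdo2, 53.6% for Tat, 43.6% for Otc, 62.8% for Hpd and 55.6% for Nags. The letters TATAAA, read on both strands, stood in the Tdo2 window alone among the 6 and in 12.4% of all windows. CCAAT, read on both strands, stood in those of Tdo2 and Tat and in 33.8% of all windows. The letters AGAACA, part of the glucocorticoid receptor's binding element, stood in none of the 6 on either strand and in 16.1% of all windows. These counts describe the letters of these windows only.

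In tyrosine breakdown the transcripts of the last steps were above 1 TPM in every library and those of the steps before them below it. Tat and Hpd, the first steps, were under 1 TPM as given above, and the next gene, homogentisate dioxygenase (Hgd), was listed at 0 except for 0.0121 TPM in shCtrl 2. Maleylacetoacetate isomerase (Gstz1) was at 16.4 and 29.98 TPM in shTopors and at 35.7 and 92.0 TPM in shCtrl. Fumarylacetoacetase (Fah), the last step, was at 98.7 and 81.2 TPM in shTopors and at 102 and 121 TPM in shCtrl. Of the 5 tested genes of phenylalanine and tyrosine breakdown outside the 9, none was called, 3 had lower, non-overlapping groups, Gstz1 and Fah among them (60%, beside 35.2% of all tested genes). Their median log2 difference was -0.31, and between -0.62 (without shTopors 2) and -0.19 (without shCtrl 2) with 1 library left out.

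**Figure D3:**
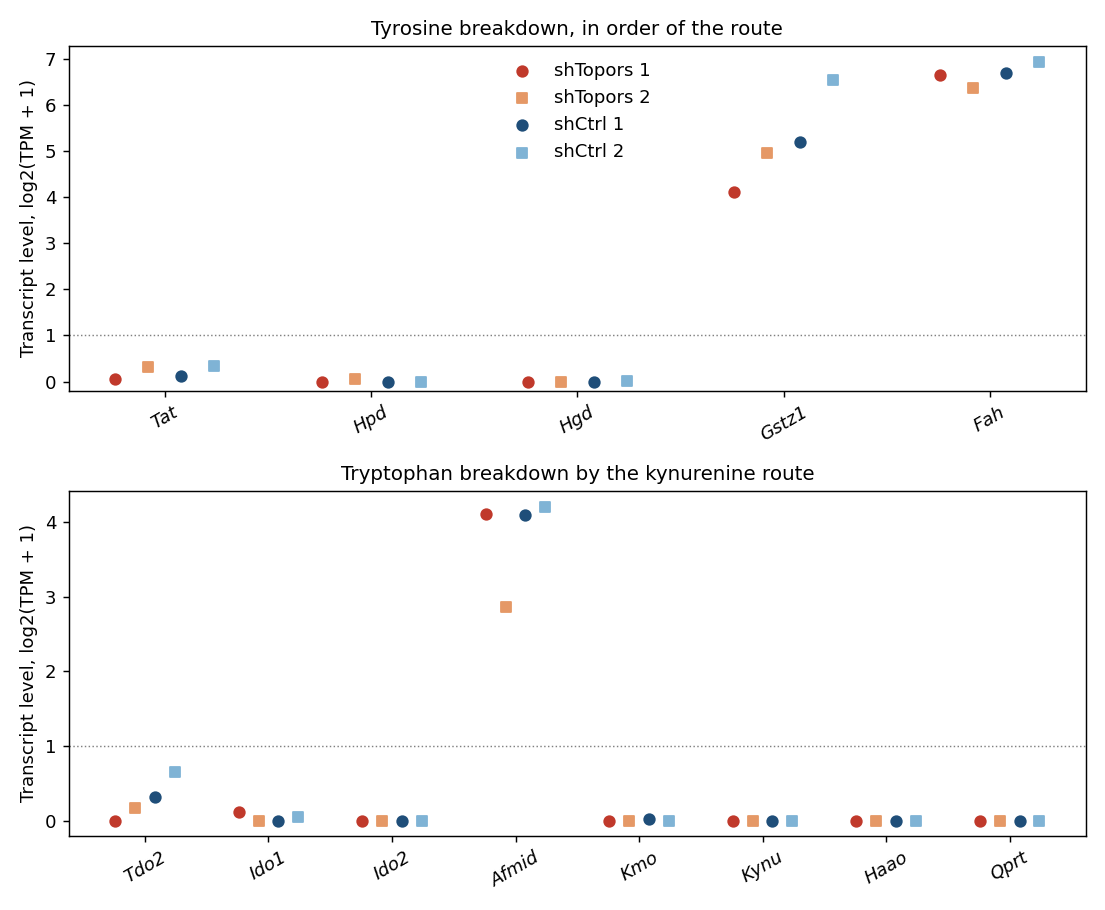
Transcript level as log2(TPM + 1) in each library along tyrosine breakdown (upper panel) and the kynurenine route of tryptophan (lower panel), colours and dotted 1 TPM line as in the plot of the 9 enzymes. Gstz1, Fah and Afmid lie above the line in all 4 libraries, and Tat, Hpd, Hgd, Tdo2, Ido1, Ido2, Kmo, Kynu, Haao and Qprt lie below it in all 4.

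Most genes of tryptophan breakdown beyond Tdo2 were near 0 as well. Of 12 further genes of the kynurenine route, 7 stayed under 1 TPM in every library and 4 of these, Ido2, Kynu, Haao and Qprt, were listed at 0 in all 4. Kynurenine formamidase (Afmid), the second step, was at 16.3 and 6.26 TPM in shTopors and at 16.1 and 17.4 TPM in shCtrl. Only shTopors 2 was low. Of the 4 tested genes none was called, and 0 were higher and 1 was lower without overlap (0% and 25%, beside 14.6% and 35.2% of all tested genes). The lower gene was Kyat1, a kynurenine aminotransferase gene, at 5.29 and 5.80 TPM in shTopors and 8.17 and 8.97 TPM in shCtrl. The median log2 difference of these 4 was -0.37, but -0.095 without shTopors 2, -0.19 without shCtrl 2 and -0.55 without shCtrl 1.

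Genes that supply nitrogen to the cycle or work beside it were mostly well expressed. Glutamate dehydrogenase (Glud1), which frees ammonia from glutamate, was at 308 and 411 TPM in shTopors and at 349 and 404 TPM in shCtrl. Glutamine synthetase (Glul), which binds ammonia outside the cycle, was at 256 and 147 TPM in shTopors and at 243 and 287 TPM in shCtrl. Both overlapped between groups. Alanine aminotransferase 2 (Gpt2) was at 43.4 and 33.8 TPM in shTopors, against 91.1 and 136 TPM in shCtrl, without overlap. Its log2 difference was -1.52 (SE 0.293, adjusted p = 0.144 in limma's fit). Cytosolic aspartate aminotransferase (Got1), which helps to provide the aspartate that Ass1 uses, was at 110 and 106 TPM in shTopors and at 75.1 and 80.0 TPM in shCtrl (log2 difference 0.47, adjusted p = 0.387 in limma's fit). Sirt5, whose product removes acyl groups from Cps1 protein, was at 5.87 and 7.21 TPM in shTopors and at 9.40 and 10.6 TPM in shCtrl. The ornithine carrier gene Slc25a15 was at 5.77 and 20.2 TPM in shTopors and at 16.5 and 24.2 TPM in shCtrl, with shTopors 1 apart from the other 3. Car5a, the mitochondrial carbonic anhydrase that feeds Cps1, was listed at 0 in all 4 libraries. Of 17 such genes 14 were tested and none was called, and 3 had higher and 2 lower non-overlapping groups (21.4% and 14.3%, beside 14.6% and 35.2% of all tested genes). The median log2 difference was -0.11, and its sign was not stable with 1 library left out: it was -0.21 without shCtrl 1, -0.0081 without shTopors 2, -0.00042 without shTopors 1 and 0.02 without shCtrl 2.

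Breakdown of the remaining amino acids showed no called gene either. In serine, glycine and threonine breakdown 10 of 15 genes were tested, and 1 had higher and 2 had lower non-overlapping groups (10% and 20%, beside 14.6% and 35.2% of all tested genes). The median log2 difference was 0.02 and took either sign with 1 library left out: -0.18 without shTopors 1, -0.14 without shCtrl 1, 0.06 without shTopors 2 and 0.15 without shCtrl 2. Amt, the aminomethyltransferase of the glycine cleavage system, was at 2.57 and 3.14 TPM in shTopors and at 9.74 and 20.0 TPM in shCtrl (log2 difference -1.97, adjusted p = 0.144 in limma's fit). Gcat, of threonine breakdown, was at 32.6 and 23.5 TPM in shTopors and at 12.2 and 13.8 TPM in shCtrl (log2 difference 1.04, adjusted p = 0.224 in limma's fit). In methionine and cysteine breakdown 10 of 13 were tested, and 2 were higher and 5 lower without overlap (20% and 50%). The median was -0.45, but -0.09 without shTopors 1, where that of all tested genes was -0.16. Ahcy, which splits S-adenosylhomocysteine, was at 185 and 51.4 TPM in shTopors and at 217 and 347 TPM in shCtrl. Sulfite oxidase (Suox) was at 7.04 and 9.40 TPM in shTopors, against 16.3 and 16.7 TPM in shCtrl, and Bhmt and Bhmt2, the betaine-homocysteine methyltransferases of liver, were listed at 0 throughout.

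Of 22 genes of branched-chain amino acid breakdown, a route most of whose steps are used in many tissues, 20 were tested. None was higher and 11 were lower without overlap (0% and 55%, beside 14.6% and 35.2% of all tested genes). The median log2 difference was -0.32, against -0.18 over all tested genes, and was -0.52 without shCtrl 1 and -0.20 without shCtrl 2, where that of all tested genes was -0.26 and -0.09. Aldh6a1, a dehydrogenase of the valine route, was at 25.5 and 10.4 TPM in shTopors and at 31.4 and 54.6 TPM in shCtrl. Acadsb, the short/branched-chain acyl-CoA dehydrogenase, was at 12.7 and 14.997 TPM in shTopors and at 21.4 and 23.7 TPM in shCtrl. In histidine, lysine and proline breakdown 6 of 11 genes were tested, and 1 was higher and 3 lower without overlap (16.7% and 50%). The median was -0.47, but -0.73 without shTopors 1 and -0.20 without shTopors 2. The pair of proline dehydrogenase genes lay on opposite sides of their controls. Prodh, which acts on proline, was at 14.4 and 11.4 TPM in shTopors and 4.87 and 6.65 TPM in shCtrl. Prodh2, which acts on hydroxyproline, was at 1.59 and 14.6 TPM in shTopors and 22.2 and 39.1 TPM in shCtrl. Neither passed (adjusted p = 0.224 and 0.263 in limma's fit). Dhtkd1, of the same list, was lower without overlap, at 1.10 and 1.54 TPM in shTopors and 3.17 and 3.53 TPM in shCtrl. It did not pass either (adjusted p = 0.245 in limma's fit).

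Across these routes together, 69 of 96 genes outside the 9 were tested, and 23 of the 96 stayed under 1 TPM in every library. In limma's fit 0 of 69 were called, and at an unadjusted p under 0.05 there were 2 higher and 10 lower, which is 2.9% and 14.5% beside 3.98% and 10.7% of all tested genes. Groups did not overlap for 10.1% as higher and 39.1% as lower, beside 14.6% and 35.2% of all tested genes, so these shares were near the background. The median log2 difference was -0.27, against -0.18 over all tested genes, and lay between -0.42 (without shCtrl 1) and -0.17 (without shCtrl 2) with 1 library left out. Without shTopors 1, 9 of the 69 were called (13%, beside 8.49% of all tested genes), and without shTopors 2, 12 were (17.4%, beside 16% of all). These fits assume that the lone shTopors library varies like the shCtrl libraries. Gpt2 and Amt, both lower, were among the 3 genes in both sets. Of the hepatocyte markers, Trf, Ttr and Apob were lower in shTopors too while the other 7 above 1 TPM overlapped, and their part in these values was not tested.

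**Figure D4:**
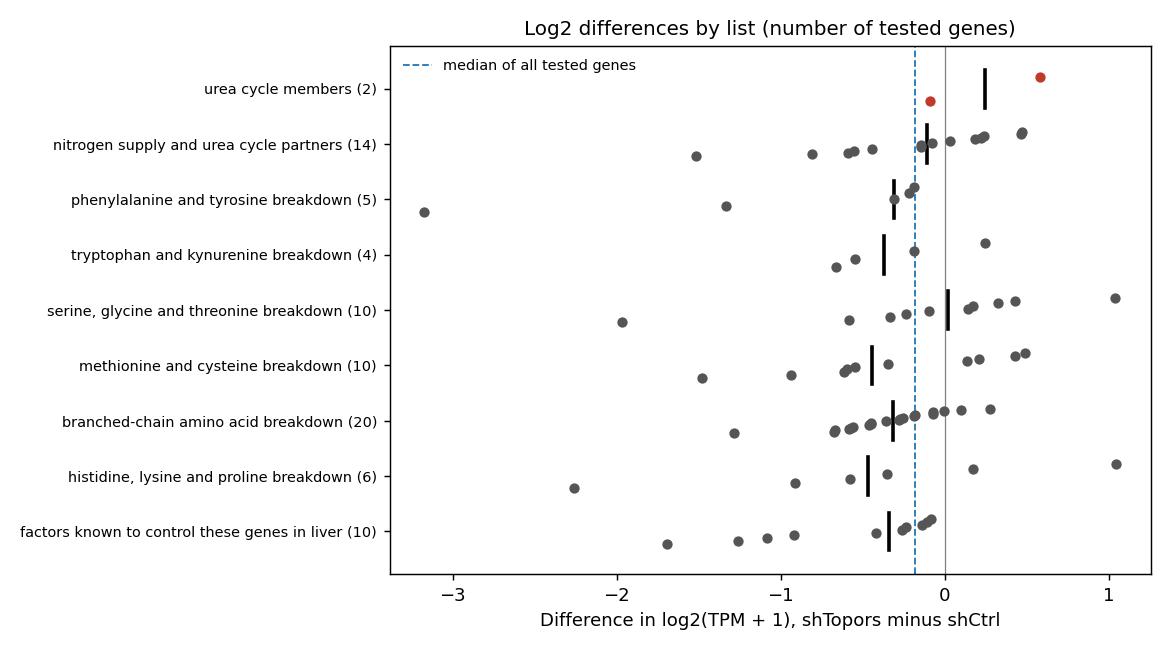
Difference in log2(TPM + 1), shTopors minus shCtrl, for each tested gene by list (red for Asl and Ass1, grey for other genes), with a black bar at each list's median and a dashed line at the median of all tested genes, -0.18. Asl, at 0.58, and Ass1, at -0.09, lie right of the dashed line.

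Factors known to control urea cycle and amino acid catabolic genes in liver were mostly present: 9 of 11 exceeded 1 TPM in every library, and Ppargc1a and Gcgr did not. Hnf4a, a nuclear receptor that drives hepatocyte genes, was at 179 and 95.3 TPM in shTopors and at 158 and 156 TPM in shCtrl. The glucocorticoid receptor gene Nr3c1 was at 22.8 and 21.7 TPM in shTopors and at 20.5 and 28.3 TPM in shCtrl. Both overlapped between groups. Foxa1, which opens chromatin at liver genes, had 1.54 and 1.65 TPM in shTopors, against 6.20 and 8.80 TPM in shCtrl (log2 difference -1.69, adjusted p = 0.13 in limma's fit). Cebpa, a factor that in mice is needed for full urea cycle gene expression, was at 8.05 and 11.6 TPM in shTopors, against 20.9 and 22.4 TPM in shCtrl (log2 difference -1.08, adjusted p = 0.218 in limma's fit). Klf15, which in mice controls amino acid catabolism, was at 18.8 and 17.1 TPM in shTopors and at 33.8 and 58.5 TPM in shCtrl (log2 difference -1.26, adjusted p = 0.208 in limma's fit). Ppargc1a, a coactivator of the fasting response, was at 0.336 and 0.867 TPM in shTopors and at 1.505 and 2.56 TPM in shCtrl, and the glucagon receptor gene Gcgr stayed at or under 0.261 TPM in every library. Of 10 tested factors none was called, and none was higher and 4 were lower without overlap (0% and 40%, beside 14.6% and 35.2% of all tested genes). Their median log2 difference was -0.34, but -0.70 without shTopors 1 and -0.57 without shCtrl 1.

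**Figure D5:**
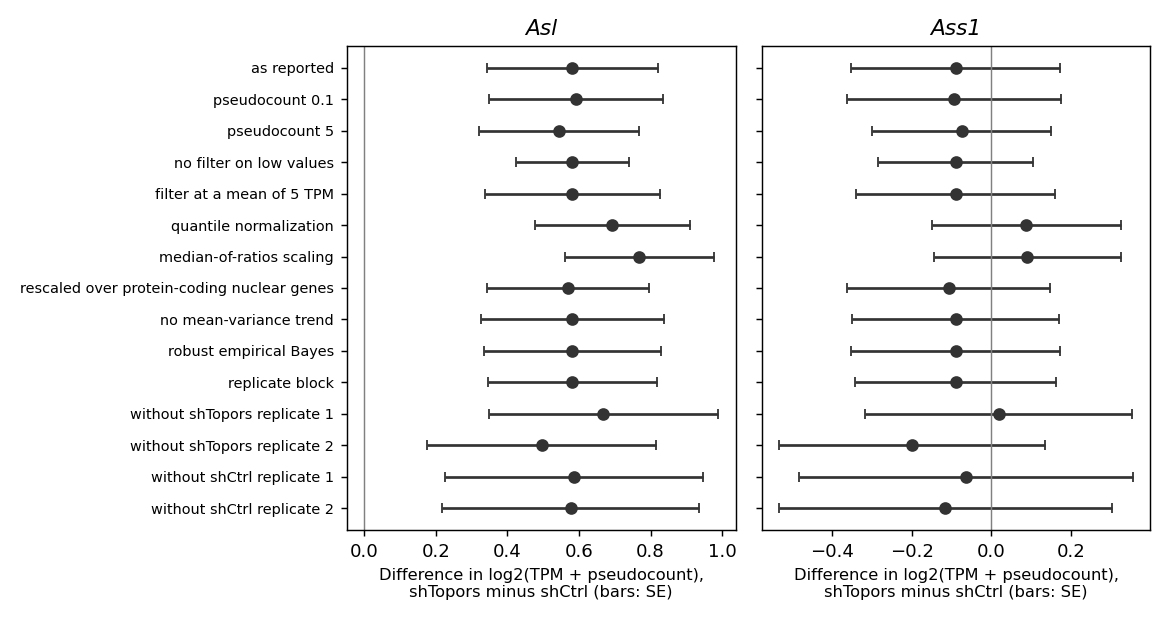
Difference in log2(TPM + pseudocount) of Asl and Ass1, shTopors minus shCtrl, as reported and under each of 14 alternatives, with bars for the SE of the fit. Asl stays between 0.50 and 0.77, and Ass1 lies between -0.20 and 0.09, on both sides of 0.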

How the data were processed

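RNA of AML12 cells was sequenced in 4 libraries, ribosomal-RNA-depleted and strand-specific per the labels' protocols. The authors deposited 1 table with a TPM value for each gene and library. HISAT2, HTSeq, DESeq2, StringTie and the build mm10 are named in the submitters' processing notes, with no version or role, and the sources used here do not give the program behind the TPM. A TPM value moves when abundant RNAs of a library shift, and it holds no depth, so no counting interval was computed.

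The 52633 table rows gave 52630 identifiers, with rows of 3 repeated identifiers summed, and 26 of 27 symbols turned into dates were restored. GENCODE M21, the source of coordinates, holds 52483 of them. The tests ran on log2(TPM + 1) in limma 3.58.1 (R 4.3.3, mean-variance trend, no covariate), for genes averaging 1 TPM or more, and p-values were adjusted over all of these. Near-identical copies were sought with BLAST 2.17.0 (at least 200 bases at 90% identity). Of these steps, the limma fit was also run on simulated data with known differences. Python 3.11.15 ran the remaining steps, with pandas 2.3.3, numpy 2.4.6, matplotlib 3.10.9 and scipy 1.17.1.

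All 9 genes are named. From each further list the text gives counts and, as no member passed, up to 4 genes with the smallest p. Glud1, Glul, Arg2, Car5a, Hgd, Afmid, Ido2, Kynu, Haao, Qprt, Bhmt, Bhmt2, Hnf4a, Nr3c1 and Gcgr are named for their role. Single hepatocyte and bile duct markers were named after their values were seen. A result for 1 listed gene is left out. The nearest genes were sought for members with a mean of at least 5 TPM, without provisional symbols. The 9 genes and the lists were chosen with earlier results of these data known. Alternatives were other pseudocounts, filters, scalings and variance models, a fit with the replicate number as a block, and fits without each library.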

Additional observations from a re-analysis of the deposited data

How the results depend on the processing

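None of the 9 genes was called under any of the 14 alternatives run. The Asl difference kept its direction in all of them, from 0.50 to 0.77 on the log2 scale, with adjusted p-values from 0.216 to 0.988 in limma. Ass1 turned positive after quantile normalization (0.088) and median-of-ratios scaling (0.090), and leaving out 1 library moved it between -0.20 and 0.019 (without shTopors 1). Both scalings moved the median of all tested genes to -0.006 and -0.016, against -0.18 as deposited. Under median-of-ratios scaling the list medians moved with it, to 0.078 for nitrogen supply and 0.21 for serine, glycine and threonine, to -0.12 for tyrosine, -0.20 for tryptophan, -0.29 each for methionine and for histidine, lysine and proline, -0.14 for branched-chain amino acids and -0.16 for the liver factors, and to -0.086 over all 69.

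Over all tested genes 1 was called higher and 4 lower. With no filter on low values 0 and 0 were, and 0 higher and 1 lower with a filter at 5 TPM, with quantile normalization, with median-of-ratios scaling and when rescaled over protein-coding nuclear genes. With 1 library left out the counts ran from 0 to 687 higher and from 0 to 1479 lower, and from 0 to 12 for the 69 further genes of these routes. The highest counts came without shTopors 2. With the replicate block 6 were higher and 27 lower, and Asl had an adjusted p = 0.271 in limma. The labels do not say that numbers mark shared cultures: the differences between replicate 1 and replicate 2 correlated at r = 0.199 across tested genes between groups, and with 2 pairs the numbers were not taken as pairs. The unknown depth limits what the 7 genes under 1 TPM can show.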
